A study of Elaeis guineensis with 6 samples.

Results

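Complete defoliation, the removal of all leaves except the unopened central spear, is used in oil palm (Elaeis guineensis Jacq.) because it can shift the sex of later inflorescences towards male. The comparison described here is the un-emitted inflorescence at leaf axil +5 of a defoliated tree (stress +5) against the inflorescence at the same leaf axil of an untreated tree (control +5), the most advanced of the 3 sampled positions. The trees were felled 45 days after defoliation. Each side is 1 library, and the study's methods speak of a sample of trees and then of both trees being felled. This is read here as 1 control and 1 defoliated tree, which the sources used here do not state outright, nor whether tissue was pooled. The treatment therefore cannot be told apart from the tree, no test was possible, and all differences are descriptions of 2 libraries. The other 4 libraries, from leaf axils -20 and -27 of the same trees, were used only to show where the +5 difference stands. FPKM stands for fragments per kilobase of transcript, scaled to the number of mapped fragments. Members were the gene records with an FPKM of 1 or more in at least 1 of the 2 libraries at +5. They were 20116 of the 32099 records in the table. Of the other records, 6912 were listed at 0 in both libraries and 5071 had a value above 0 but under 1. The lowest member reached 1.00 on its higher side and the highest record left out 0.999989.

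A palm inflorescence arises from a meristem in the axil of each leaf. Class I KNOX homeobox genes keep meristem cells undifferentiated, and MADS-box transcription factors in the SQUAMOSA, SEPALLATA/AGL6, GLOBOSA/DEFICIENS and AGAMOUS clades then specify floral meristems and the floral organs. In oil palm, a loss of DNA methylation is known to accompany the abnormal flowers of the mantled phenotype, so the DNA methyltransferases are also of interest in this tissue.

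The labelled tissue was checked against the marker genes that carry a name. SQUA1, a SQUAMOSA-type gene, had an FPKM of 124.5 in control +5 and 149.9 in stress +5, against 4.10 to 8.43 in the 4 libraries from leaf axils -20 and -27. The meristem gene KNOX1 was abundant in all 6 libraries. Of the named floral organ genes, DEF1, AG2, AGL2-1 and AGL2-2 were listed at 0 in both libraries at +5. Others of these types had signal there. GLO1 had 11.2 in control +5 and 9.97 in stress +5, GLO2 7.83 and 3.515, and AGL2-5 7.19 and 1.95. AGL6-1 had 2.21 and AGL2-3 0.153 in control +5, and both were listed at 0 in stress +5. Of 38 photosynthesis genes encoded in the chloroplast, a mark of green leaf, 24 were listed at 0 in each library at +5 and 2 reached an FPKM of 1. Their FPKM summed to 6.36 in control +5 and 6.57 in stress +5. The study does not state how RNA was selected for the libraries, and none of the 6 is from green leaf. These low values therefore cannot show whether green tissue was present. Nuclear genes for chlorophyll a/b-binding proteins, also planned as a mark, were not examined.

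Differences were taken on log2(FPKM + 1), stress +5 minus control +5, where 1 stands for 2-fold. Because of the added 1, low genes appear less changed on this scale than their FPKM ratio. Of the 20116 members, 1255 (6.24%) were higher by 2-fold or more in the defoliated inflorescence, 2350 (11.7%) were lower by as much, and 16511 (82.1%) were less than 2-fold apart. The median difference was -0.13, and the middle part of the members, from the lower to the upper quartile, lay between -0.58 and 0.31. The library medians of log2(FPKM + 1) differed by -0.15. After the libraries were centred on these medians, 1718 members (8.54%) lay 2-fold or more above control +5 and 1713 (8.52%) below it. The share of lower members among those 2-fold apart was 65.2% with the values as deposited and 49.9% after centring, so an excess of lower genes depends on the scaling. Centring adds the same 0.15 to every gene, so it leaves the order of the genes as it is.

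**Figure D1:**
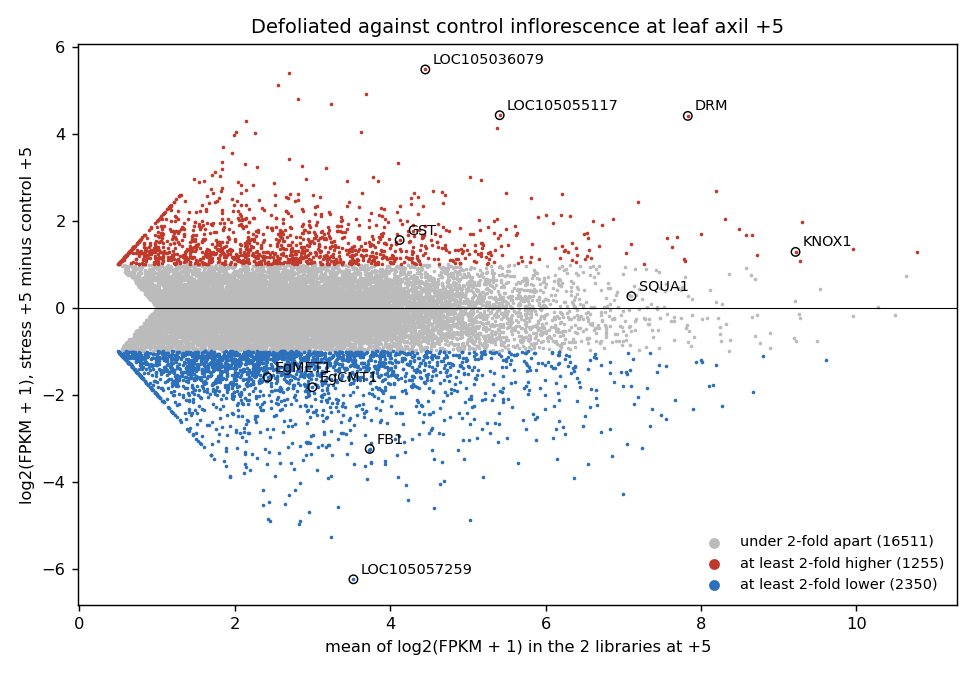
Difference of log2(FPKM + 1) between stress +5 and control +5 (vertical axis) against the mean log2(FPKM + 1) of both libraries (horizontal axis) for the 20116 members, with values as deposited. Red points are the 1255 members at least 2-fold higher, blue points the 2350 at least 2-fold lower, and circled genes are described in the text. The straight edges at the left come from the FPKM minimum of 1.

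An FPKM of 10 or more on the higher side was reached by 7172 members. Of these, 538 (7.5%) were higher by 2-fold or more and 1065 (14.8%) lower, or 719 and 836 after centring. At least 4-fold there were 104 higher and 308 lower (137 and 261 after centring). At least 8-fold there were 24 and 104 (31 and 84 after centring), and at least 16-fold 13 and 21 (14 and 18 after centring). Large negative differences thus outnumbered large positive ones under both scalings. Among these 7172, 5 members were listed at 0 in stress +5 and 6 in control +5.

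For scale, the same rule was applied to the other leaf axils. At -20, 2.7% of the records were 2-fold or more above the control after defoliation and 5.29% below it. At -27 the shares were 2.87% and 4.57%. Both were lower than the shares at +5, a difference with no test because each leaf axil has 1 library a side. Between leaf axils -20 and -27 of the same tree, 1.2% of the records were at least 2-fold apart in the control and 1.18% under stress. These libraries are neighbouring stages and not replicates, so they give only an idea of how far similar libraries lie apart.

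The genes named next are the 12 with the largest positive and the 12 with the largest negative difference among members at an FPKM of 10 or more. DRM is the only one of them with a name in the table. The others carry a RefSeq locus identifier, which the sources used here pair with no product name, so no role is given for them.

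**Figure D2:**
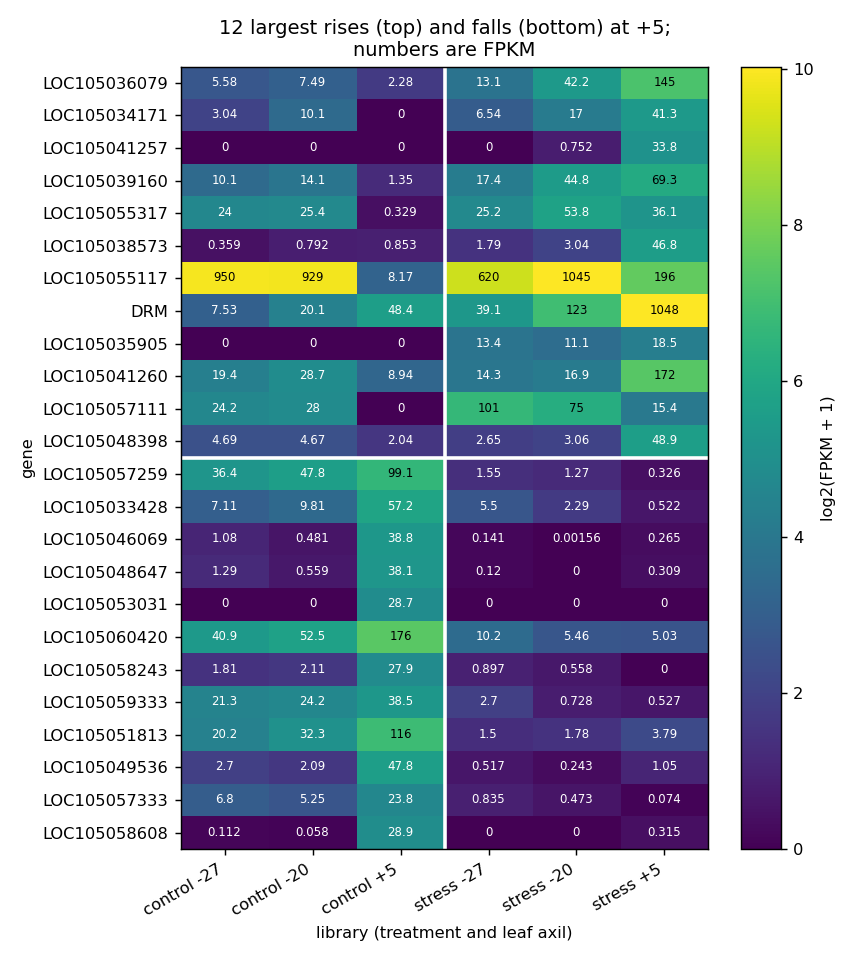
FPKM (printed) and log2(FPKM + 1) (colour) of the 12 genes with the largest positive difference at +5 (upper block) and the 12 with the largest negative difference (lower block) in the 6 libraries, control at the left and stress at the right. Among the upper genes, LOC105055117 is high in the early libraries of both trees, DRM is highest in stress +5, and LOC105035905 is listed at 0 throughout the control tree.

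The 12 genes that were higher in stress +5 are described in 3 sets by their profile across the libraries, a grouping made after the values were seen. The first set was present in the early inflorescences of both trees and lowest in control +5. LOC105055117 had an FPKM of 949.7 and 929.4 at -27 and -20 in the control tree and 619.6 and 1045 in the defoliated tree. At +5 it was at 8.17 in the control and 196.0 after defoliation, 24.0-fold higher. Both trees thus had lower values at +5 than before. The wider gap in the control tree follows in part from the choice of the gene at +5. LOC105055317 had 24.0, 25.4 and 0.329 in the control at -27, -20 and +5, and 25.3, 53.8 and 36.1 under stress. LOC105034171 was listed at 0 in control +5, against 3.04 and 10.1 at -27 and -20 there, and had 41.3 in stress +5. LOC105057111 was also listed at 0 in control +5 after 24.2 and 28.0 earlier, and its value in stress +5, 15.4, was itself under the 100.6 and 75.05 of the early stress libraries. LOC105039160 had 1.35 in control +5 and 69.3 in stress +5, against 10.1 to 44.8 in the early libraries. In these 5 genes the control +5 library held the lowest of the 6 values, which is how the set was formed. This was also so for LOC105036079, LOC105041260 and LOC105048398, which are described below.

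The second set was lower in the early libraries of both trees than in stress +5. This trait is not particular to the set. Stress +5 was also the highest library for LOC105034171 and LOC105039160 above, and for LOC105036079, DRM and LOC105035905 below. LOC105041260 had an FPKM of 171.8 in stress +5 and between 8.94 and 28.7 in the other 5 libraries. LOC105048398 had 48.9 in stress +5 and between 2.04 and 4.69 elsewhere. LOC105038573 had 46.8 in stress +5, and no other library exceeded 3.04. LOC105041257 was listed at 0 in 4 of the 6 libraries, had 0.752 in stress -20 and reached 33.8 in stress +5. In each of these 4 genes stress +5 stood above all other libraries. The choice of the genes ensures this at +5. The grouping, made with the early values seen, ensures it for the early libraries.

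The third set was already higher in the defoliated tree at the early leaf axils, as were LOC105057111 of the first set and LOC105038573 of the second, by 2-fold or more at both. DRM had an FPKM of 7.53, 20.1 and 48.4 in the control at -27, -20 and +5, and 39.1, 123.3 and 1048 under stress. The ratio of stress to control at +5 was 21.7, and the differences on the log2 scale were 2.23 at -27, 2.56 at -20 and 4.41 at +5 (4.56 after centring). DRM is the most abundant of the 24 genes in stress +5, and within both trees its level was higher at -20 than at -27 and higher again at +5. The symbol has been used in plants for dormancy-associated proteins and for a class of DNA methyltransferases, and the sources used here do not say which is meant, so no role is given. LOC105036079, the gene with the largest difference, went from 5.58 and 7.49 to 2.28 along the control tree. Along the defoliated tree it had 13.1, 42.2 and 145.0, and it was 63.6-fold higher at +5. LOC105035905, which RefSeq annotates as a pseudogene, had no signal listed in the control tree, against 13.4, 11.1 and 18.5 in the defoliated tree. In RefSeq EG11 it overlaps LOC140850878, so its reads may be shared. The reads were aligned to an earlier assembly, and the sharing was not tested.

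The 12 genes that were lower in stress +5 passed the FPKM minimum of 10 through control +5, so a high value there follows largely from their choice. The early libraries played no part in it. For 6 of them the early control libraries were at least 2-fold above the early stress libraries at both leaf axils. For LOC105033428 this held at -20 only, and for LOC105048647, at low FPKM, at -27 only. LOC105057259 had an FPKM of 36.4, 47.8 and 99.1 in the control at -27, -20 and +5, and 1.55, 1.27 and 0.326 under stress. LOC105060420 had 40.9, 52.5 and 176.1 against 10.3, 5.46 and 5.03. LOC105051813 had 20.2, 32.3 and 115.9 against 1.495, 1.78 and 3.79. LOC105059333 had 38.5 in control +5 and 0.527 in stress +5, and LOC105057333 had 23.8 and 0.074. LOC105033428 had 57.2 and 0.522 at +5, 9.81 and 2.29 at -20, but 7.11 and 5.50 at -27.

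LOC105049536 also had this difference, with 2.70 and 2.09 in the early control libraries against 0.517 and 0.243, and had 47.8 in control +5 and 1.05 in stress +5. The remaining 5 of the lower genes had an FPKM of 2.11 or less in the early libraries of both trees. LOC105053031 was listed at 0 in 5 libraries and had an FPKM of 28.7 in control +5. LOC105058608 had 28.9 in control +5 and at most 0.315 elsewhere. LOC105046069 and LOC105048647 had 38.8 and 38.1 in control +5, and neither exceeded 1.29 in any other library. LOC105046069 overlaps LOC105046070 in RefSeq EG11, so the 2 genes may share reads, which was not tested on the earlier assembly used for alignment. LOC105058243 had 27.9 in control +5 and was listed at 0 in stress +5, with 0.558 to 2.11 earlier. Since the genes were chosen on the +5 libraries, their values there are a description only.

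The larger groups are given by their medians. The 308 members at least 4-fold lower had a median FPKM of 28.3 in control +5 and 3.37 in stress +5. In the early libraries, which did not enter the choice, their medians at -27 and -20 were 9.83 and 9.84 in the control tree, against 4.29 and 3.40 in the defoliated tree. The +5 medians follow from the choice of the genes and cannot be read against the early ones as a change within a tree. The 104 members at least 4-fold higher had control medians of 7.19, 7.62 and 3.05 at -27, -20 and +5. Their medians in the defoliated tree were 11.6, 13.6 and 25.2. The 5569 members at an FPKM of 10 or more that were less than 2-fold apart had medians between 15.01 and 15.87 in all 6 libraries.

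**Figure D3:**
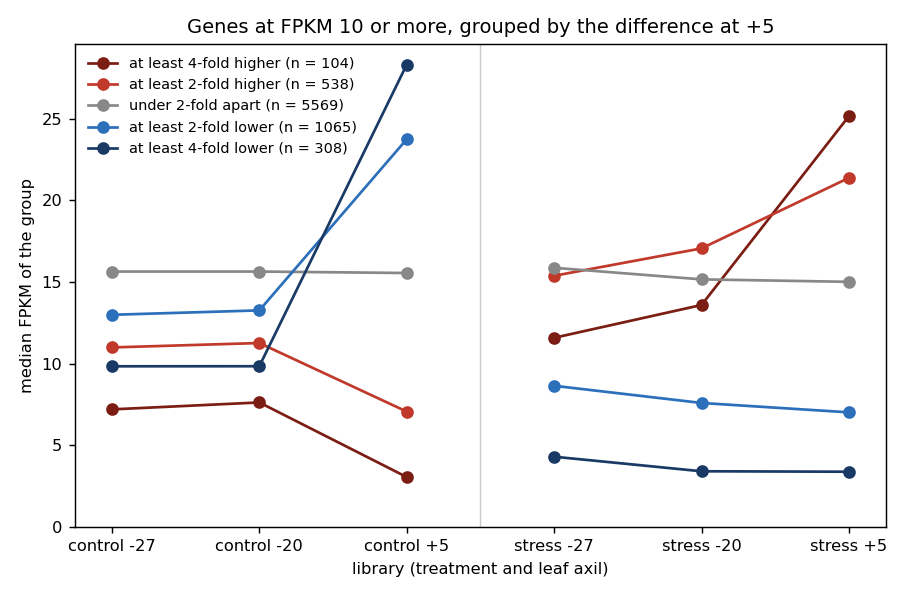
Median FPKM in the 6 libraries of the members at an FPKM of 10 or more, grouped by their difference at +5. The groups were formed on the +5 libraries, so the order at +5 follows from the choice. In the early libraries, which were not used, the 308 strongly lower genes have medians of 9.83 and 9.84 in the control tree, against 4.29 and 3.40 in the defoliated tree.

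Many of the +5 differences were also present earlier, in part. Of the 104 genes at least 4-fold higher at +5, 27 (26%) were at least 2-fold higher at both -27 and -20, against 1.07% of all members. Of the 308 at least 4-fold lower, 118 (38.3%) were at least 2-fold lower at both, against 2.29% of all members. In contrast, 51 (49%) of the higher and 132 (42.9%) of the lower genes were less than 2-fold apart at both early leaf axils. Over all members 2-fold apart at +5, the difference was at least 2-fold in the same direction at both early leaf axils for 136 of the 1255 higher (10.8%) and 301 of the 2350 lower (12.8%). If the 3 leaf axils of a treatment come from the same tree, as read here, a difference shared by all of them is one between trees as much as between treatments.

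Of the genes with a name in the table or in RefSeq, 55 in all, 46 were members. Of these, 6 (KNOX1, DRM, GST, CAT2, ACT1 and ARP) were higher by 2-fold or more after defoliation and 10 lower, beside 6.24% and 11.7% of all members, with a median difference of -0.42 against -0.13 for all members. After centring, 9 were higher and 8 lower. The groups below were formed by known role, so their counts describe them and nothing more.

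**Figure D4:**
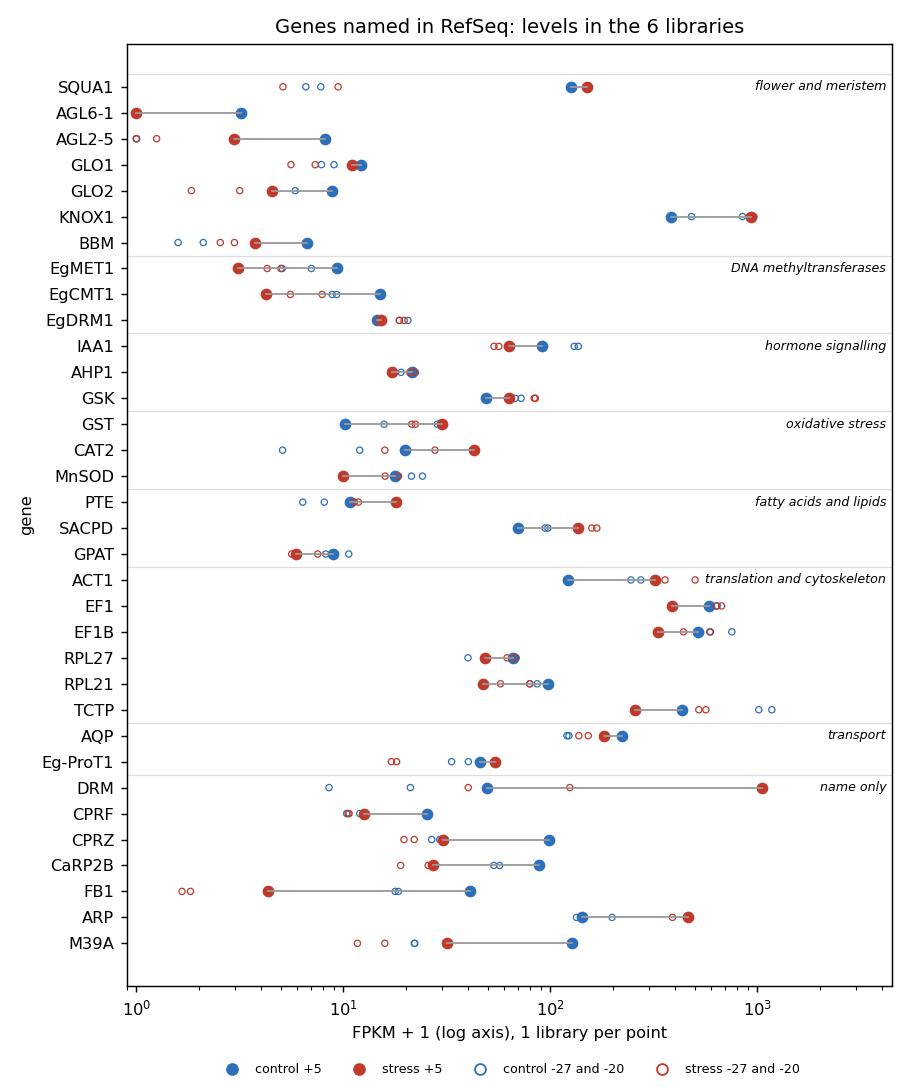
FPKM + 1 on a log axis for the named genes with a known role, followed by the genes with a name alone that were at least 2-fold apart at +5. Filled points are the +5 libraries, joined by a line, and open points the libraries from -27 and -20 (control blue, stress red). DRM and FB1 are widest apart at +5, while SQUA1, GLO1 and EgDRM1 lie close together.

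Among the flower and meristem genes, 7 of 12 were members, 1 of them 2-fold or more above the control and 2 below it under either scaling. KNOX1, the meristem homeobox gene, had an FPKM of 380.5 in control +5 and 928.0 in stress +5, 2.44-fold higher (log2 difference 1.28, and 1.44 after centring). In the control tree KNOX1 was at 847.4 at -27 and 480.2 at -20, so it was lower at each later position, while the stress libraries held 961.5, 913.7 and 928.0. SQUA1, in contrast, was only 1.20-fold higher under stress at +5, although it had the highest level there among the named MADS-box genes.

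Of the 5 SEPALLATA- and AGL6-type genes, which act with the other MADS-box factors in floral organ complexes, AGL2-1 and AGL2-2 were listed at 0 in all 6 libraries, and 2 were members. AGL2-5 (LOC105057174) had an FPKM of 7.19 in control +5, 1.95 in stress +5 and at most 0.252 earlier. AGL6-1 had 2.21 in control +5 and was listed at 0 in the other 5 libraries. AGL2-3 had 0.153 in control +5, too low to be a member, and was listed at 0 elsewhere.

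The GLOBOSA-type genes, which help to specify petals and stamens, were detected in all 6 libraries. GLO1 (LOC105037274) had 11.2 in control +5 and 9.97 in stress +5, a log2 difference of -0.15 that centring took to 0.0024. GLO2 had 7.83 and 3.51 (log2 difference -0.97), and it was also lower under stress at -20 (4.86 against 0.844) and at -27 (3.61 against 2.15). BBM (LOC105039637), an AP2-type factor known for its role in embryo formation, had 5.66 in control +5 and 2.74 in stress +5.

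Of the 3 named DNA methyltransferases, both that were 2-fold apart were lower after defoliation. EgMET1 (LOC105055950), of the type that copies CG methylation at replication, had an FPKM of 8.34 in control +5 and 2.08 in stress +5, a ratio of 0.25. EgCMT1 (LOC105056476), a chromomethylase, had 14.0 and 3.24, a ratio of 0.231. Their log2 differences were -1.60 and -1.83, and after centring -1.44 and -1.67. EgDRM1 (LOC105032137), of the domains rearranged type that acts in RNA-directed methylation, had 13.6 and 14.2 (log2 difference 0.06). For EgMET1 the differences at the early leaf axils were smaller, -0.020 at -27 and -0.71 at -20. For EgCMT1 they were -0.23 and -0.67. In the control tree both genes were highest at +5, and in the defoliated tree both were lowest there.

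None of the 3 hormone signalling genes was 2-fold apart at +5. IAA1, an Aux/IAA repressor of auxin responses, had an FPKM of 90.1 in control +5 and 62.0 in stress +5. At -27 and -20 it was more than 2-fold lower under stress, with 135.6 and 129.5 in the control against 52.5 and 55.4. AHP1, which passes phosphate on in cytokinin signalling, had 20.4 and 16.2 at +5, and GSK, a kinase of the GSK3/shaggy type, had 47.7 and 62.4.

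Of the 3 oxidative stress genes, 2 were at least 2-fold higher after defoliation. GST, a glutathione S-transferase, had an FPKM of 9.15 in control +5 and 28.8 in stress +5, 3.15-fold higher. In the control tree its values were 27.4, 14.7 and 9.15 at -27, -20 and +5, and under stress 20.4, 21.3 and 28.8, so the order of the trees at -27 was the opposite. CAT2 (LOC105054906), a catalase that breaks down hydrogen peroxide, had 18.9 and 42.0 at +5 and was higher under stress at -27 (4.08 against 14.9) and -20 (11.0 against 26.7) as well. MnSOD (LOC105044809), the superoxide dismutase of mitochondria, had 16.9 and 9.01 (log2 difference -0.83).

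Among the lipid genes, LIP1 was listed at 0 in all libraries and none of the other 3 was 2-fold apart with the values as deposited. SACPD (LOC105048931), the stearoyl-ACP desaturase that makes oleic acid, had an FPKM of 69.2 in control +5 and 134.8 in stress +5. Its log2 difference was 0.95, and 1.11 after centring. PTE, a palmitoyl-ACP thioesterase, had 9.81 and 16.9, and GPAT, a glycerol-3-phosphate acyltransferase, had 7.94 and 4.93. All 3 differed in the same direction at -27 and -20.

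Of the 6 named genes of translation and the cytoskeleton, 5 had a lower value in stress +5, 1 of them by 2-fold or more, while 11669 of all 20116 members had a lower value there. TCTP, an abundant protein of growing cells, had an FPKM of 430.4 in control +5 and 255.7 in stress +5, and 1175 against 521.1 at -27. EF1 (LOC105045817), elongation factor 1-alpha, had 581.0 and 386.5, and EF1B (LOC105057687) 516.1 and 331.2. RPL21 (LOC105053671) had 96.0 and 46.3, a log2 difference of -1.03 that became -0.88 after centring, and RPL27 (LOC105040877) had 64.8 and 47.6. ACT1 (LOC105038005), an actin that is often taken as a reference gene, went the other way, with 120.4 in control +5 and 320.1 in stress +5, 2.66-fold higher.

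The 2 transport genes were less than 2-fold apart. AQP (LOC105042909), an aquaporin, had an FPKM of 221.8 in control +5 and 180.8 in stress +5. Eg-ProT1 (LOC105032589), a proline transporter, had 44.9 and 53.1 at +5, whereas at -27 and -20 it was lower under stress (39.2 against 17.1 and 32.4 against 16.1).

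Some genes that carry a name but no role that could be stated here were among those farthest apart. FB1 (LOC105032735) had an FPKM of 40.0 in control +5 and 3.33 in stress +5, and was lower under stress also at -27 (17.4 against 0.661) and -20 (16.8 against 0.825). M39A (LOC105058997) had 126.8 and 30.6 at +5, with 10.7 to 21.1 in the early libraries. CPRZ had 97.9 and 29.2, and CaRP2B (LOC105038220) 86.8 and 26.1. ARP (LOC105061558) was 3.28-fold higher, with 140.5 in control +5 and 460.1 in stress +5. CHAC1 (LOC105050890), one of the most abundant named genes, hardly differed, with 1241 and 1253.

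The difference at +5 varied with the length of the gene. Of the protein-coding members, 555 have a RefSeq gene length under 1000 bases, introns included. Of these, 38% were 2-fold or more below the control in stress +5 and 9.55% above it. The shares were 28.6% and 9.94% among 1398 genes of 1000 to 2000 bases, and 4.67% and 4.7% among 6507 genes of 10000 bases or more. The median difference went from -0.60 in the shortest to -0.0042 in the longest genes, and in the shortest class it was -0.45 below a mean FPKM of 5 and -0.97 at 30 or more. At -20 and -27 the shortest genes had medians of -0.16 and -0.19. Within the control tree the shortest genes were 0.56 higher at +5 than at -20, the median over genes, and within the defoliated tree 0.09 higher. These changes share the +5 libraries with the contrast between treatments. The part of gene length in the differences of single genes was not tested. Centring within the 5 length classes left 1353 protein-coding genes 2-fold higher and 1359 lower, against 932 and 2067 before.

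**Figure D5:**
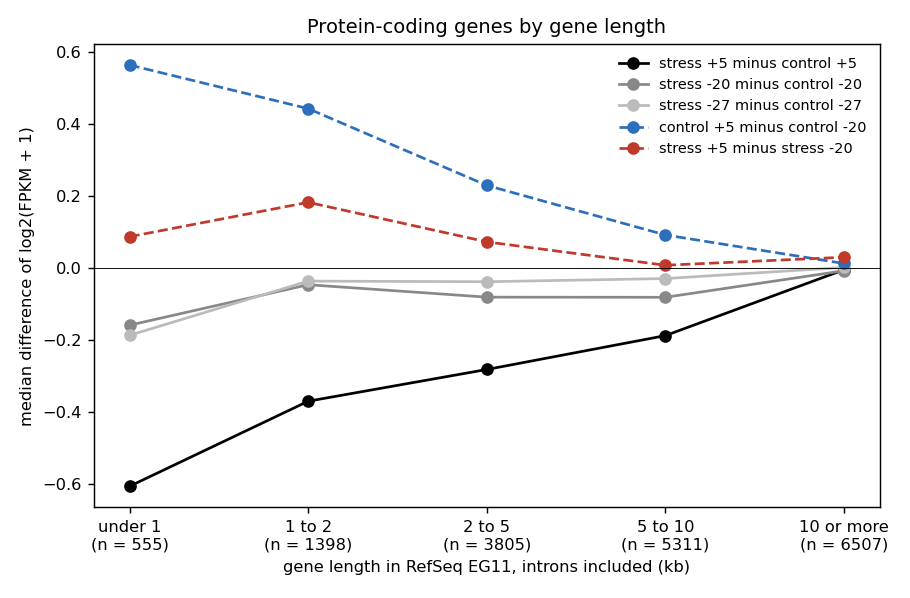
Median difference of log2(FPKM + 1) of protein-coding members in 5 classes of gene length, between treatments at each leaf axil (solid lines) and between leaf axils +5 and -20 within a tree (dashed lines). The line of stress +5 minus control +5 runs from -0.60 in the shortest class to about 0 in the longest, and that of control +5 minus control -20 runs the other way, from 0.56.

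Shares also differed between classes of transcript. RefSeq gave a biotype to 18880 members (93.9%), 17576 of them protein-coding, and of these 932 (5.3%) were higher by 2-fold or more and 2067 (11.8%) lower. Of 123 small nucleolar RNAs, which guide the modification of ribosomal RNA, 46 (37.4%) were higher and 14 (11.4%) lower, with a median difference of 0.53. After centring 53 were higher and 5 lower, and with a pseudocount of 0.1 in place of 1 the numbers were 60 and 23. Their median FPKM was 1.29 in control +5 and 2.06 in stress +5, and between 1.10 and 1.44 in the early libraries. The members were chosen on the +5 libraries, so the early medians cannot be read against those at +5. Only 4 of them reached an FPKM of 10, and their median gene length was 92 bases. The 24 listed at 0 in control +5 passed the filter through stress +5 alone, and all are among the 46 higher. Those listed at 0 in stress +5, 4 in number, passed through control +5 alone and are among the 14 lower. These shares thus follow in part from the filter. In RefSeq EG11, 99 lie inside another gene, so reads of the host gene may be counted with theirs. The reads were aligned to an earlier assembly, and this was not tested. Of 532 long non-coding RNAs, 72 (13.5%) were higher and 67 (12.6%) lower, with a median of 0.05. After centring the numbers were 85 and 43.

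Depth could be compared between the libraries from records with low values. The most frequent ratio among records under an FPKM of 0.5 in both libraries put the depth of stress +5 at 1.18 times that of control +5, an estimate from the FPKM values alone, since the read totals that the study lists were not used here. More records reached an FPKM of 1 in control +5 (19059) than in stress +5 (18610). Of the members, 1506 reached it in control +5 alone and 1057 in stress +5 alone. The FPKM values of all records summed to 268805 in control +5 and 238672 in stress +5. By mean FPKM of the members, the shares 2-fold apart were lowest at 5 to 10 (5.33% higher and 9.62% lower) and highest at 100 or more (13.5% and 25.5% of 251 genes).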

How the data were processed

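RNA of the 6 inflorescence samples was sequenced in pairs on an Illumina HiSeq 2000. The authors left the reads untrimmed, aligned them with HISAT2 2.1.0 to an earlier oil palm assembly than RefSeq EG11 and quantified genes with StringTie 1.3.4. The authors deposited FPKM values, 1 column per library and with no filter. The table holds no read totals or counts, so no counting intervals were computed, and the estimated counts behind the study's DESeq2 1.18.1 test were not used here. Differences of log2(FPKM + 1) were computed in Python 3.11.15 with numpy 2.4.6 and pandas 2.3.3, and the script was tested on simulated data. Relative depth is the most frequent ratio among records under 0.5 in both libraries.

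Named genes were the 12 largest differences each way at an FPKM of 10 or more (identifiers on 1 record), and all 55 genes with a name in the table or a RefSeq synonym; the synonyms were added after the values were seen. A planned grouping by protein signature was not used here. Symbols matched 93.9% of members in RefSeq EG11, used for synonyms, biotypes, lengths, order and overlaps of genes only. Members and lists were chosen with earlier results of these data known. Alternatives were 3 other scalings, a pseudocount of 0.1, other filters, repeated identifiers left out, and, added later, protein-coding records and centring by gene length.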

Additional observations from a re-analysis of the deposited data

Results flagged for a closer look

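Among genes at an FPKM of 10 or more, 8 were at least 2-fold apart at +5 and at least 2-fold apart in the opposite direction at both -27 and -20. They were 4 of the 538 genes 2-fold higher at +5 and 4 of the 1065 lower, so such genes were few. The same direction at both held for 62 and 191. Of all members, 2.29% were 2-fold lower and 1.07% 2-fold higher at both early leaf axils. The difference between leaf axils was not tested, since each has 1 library a side. LOC105060172 (log2 difference 1.44 at +5) had an FPKM of 8.74 in control +5 and 25.5 in stress +5, but 5.29 against 1.44 at -27 and 4.45 against 1.55 at -20. LOC105049415 (1.88) had 2.79 and 12.9 at +5 and 11.4 against 4.79 at -20. LOC105049634 (1.19) and LOC105042016 (1.05) had the same pattern, higher after defoliation at +5 and lower before. LOC105032993 (-1.77) had 16.1 and 3.99 at +5 but 4.67 against 17.2 at -20. LOC105056195 (-1.30), LOC105053970 (-1.27) and LOC105041988 (-1.03) were likewise lower at +5 and higher earlier. After centring LOC105041988 was at -0.87.

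Of the 69 named genes, 9 had a difference at +5 of the opposite sign to both early leaf axils, again without a test of the difference. For scale, the same held for 14.7% of the 1255 members 2-fold higher at +5 and 9.91% of the 2350 lower. The 9 genes were not held to that 2-fold limit, and no share over all members was computed. Of the 9 genes, 2 are among the 12 largest positive differences, LOC105041260 (4.12 at +5, -0.41 at -27 and -0.73 at -20) and LOC105048398 (4.04, -0.64 and -0.48). SAG (LOC105044652) was lower at +5 (-0.84) and higher at -27 (1.53) and -20 (0.77), and EMZ08 (LOC105044578) was at -0.92, 1.37 and 0.23. BBM was at -0.83 at +5 against 0.27 and 0.90. The other 4 were smaller at +5: sbp1 (LOC105041355) at 0.70, AHP1 at -0.31, AQP at -0.29 and Eg-ProT1 at 0.24. Signs of small differences can turn with the scaling, and centring adds 0.15 at +5.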

How the results depend on the processing

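No paired analysis was possible because each treatment has 1 library at +5, and for the same reason no replicate could be left out. The median difference of -0.13 became 0.028 when centred on medians, -0.0097 with upper-quartile scaling and 0.026 after quantile normalization. With a pseudocount of 0.1 there were 1928 records 2-fold higher in place of 1255, and 853 in place of 437 of those 2-fold apart were so in 1 direction at each leaf axil. With a minimum FPKM of 5 there were 819 higher. Centring within classes of gene length left 1359 protein-coding records lower, in place of 2067 protein-coding records as deposited. The share of lower records among those 2-fold apart was 65.2% as deposited, 54.7% with upper-quartile scaling, 51.4% after quantile normalization and, among protein-coding records, 68.9% before and 50.1% after centring by length. Of 69 genes named, 39 were 2-fold apart. Under each of the 3 other scalings 37 of these stayed so, CPRF and RPL21 fell below and ADPRF, NTF and SACPD came in. With a pseudocount of 0.1 all 39 stayed, and GLO2 and BBM came in. None of the 39 changed direction. Among the other named genes the sign turned for GLO1 when centred (0.0024), and for AQP (0.013) and CHAC1 (-0.53) after quantile normalization. The FPKM values hold no counts, so counting error was not estimated here.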

Other observations

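The order of the genes in RefSeq was set beside the difference at +5, as a description of these 2 libraries. Among members with a position, 5.99% were at least 2-fold higher, and of those 1125 genes 10.8% had a next neighbour that was also at least 2-fold higher. For the 2199 lower genes the shares were 11.7% and 15.3%. Among the 18767 adjacent pairs, 122 were higher together, 337 lower together and 206 apart in opposite directions. Neighbours can be copies of one gene that share reads, or overlap, and neither was tested.

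A stretch of 6 genes, chosen after its values were seen, holds LOC105041257 and LOC105041260 of the 12 largest positive differences. It is not an unbroken run, since LOC105041258 lies within it. The longest run of neighbours 2-fold apart the same way was 5 lower genes, LOC105045979 to LOC105045975. In order, LOC105041260 had an FPKM of 8.94 in control +5 and 171.8 in stress +5, and LOC105041259 had 0.145 and 12.4. LOC105041258 had 107.9 and 62.6, the only gene of the 6 that was lower. LOC105041257 was listed at 0 in control +5 and had 33.8 in stress +5. LOC105041256 had 0.963 and 9.03, and LOC105041255 was listed at 0 and had 3.57. In stress -20 the same 6 genes were at 16.9, 2.03, 68.4, 0.752, 1.11 and 0.465, so the 5 higher genes were highest in stress +5.

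A second stretch is LOC105041317, LOC105035906 and LOC105035905, adjacent among the members. All 3 were listed at 0 in control +5 and at no more than 0.0759 in the control tree, against 14.6, 1.18 and 18.5 in stress +5 and 7.72, 2.69 and 11.1 in stress -20. Among the lower genes, 4 adjacent genes from LOC105044753 to LOC105044758 were highest in control +5 of all 6 libraries. LOC105044755, the most abundant, had 101.3 there, 15.3 in stress +5, and 18.02 and 14.54 in control -27 and -20, with treatment differences of 0.14 and 0.08 there.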
